A study of Mus musculus and Homo sapiens with 24 samples.

Results

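LHCN-M2 is an established human skeletal myoblast line, immortalised with the telomerase gene TERT and the cyclin-dependent kinase gene CDK4. The data described here are its first day of differentiation: 4 libraries of day 1 against 4 libraries of day 0, which are 8 of the 24 libraries of the series, chosen by their labelled line and day. The series also holds 4 LHCN-M2 libraries of day 12 and 12 libraries of the mouse myoblast line C2C12 at days 0, 1 and 6. Day 1 cells had been differentiating for 1 day and day 0 cells were the starting myoblasts of the same line, and every library carries the genotype label control, with no transgene or treatment named. The labels do not describe the growth or differentiation medium. Nor do they say if the libraries of a day come from separate cultures. The p-values therefore reflect how these libraries of 1 line vary, and that variation may be technical. Polyadenylated RNA was sequenced and the authors deposited read counts per gene.

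Myoblasts are muscle precursor cells. When growth factors are withdrawn they leave the cell cycle, express the transcription factor myogenin and then the contractile proteins, and fuse into multinucleated myotubes. The order is set by a family of basic helix-loop-helix factors, MYF5, MYOD1, MYOG and MYF6, which bind DNA together with E proteins, and by the ID proteins, which hold E proteins back. The first day is the step in which commitment and cell cycle exit take place, ahead of most of the assembly of sarcomeres.

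Library totals were 40403483 to 48546621 counts at day 1 and 37460225 to 43446757 at day 0. Levels are given as CPM, the counts scaled to a common library size with edgeR's trimmed mean of M values, in the order of replicates 1 to 4. Differences are log2 fold changes of day 1 over day 0 with their standard error, and p-values are those of edgeR's quasi-likelihood test, adjusted by Benjamini-Hochberg over all 18214 genes tested, with a threshold of 0.05. Replicate 2 of day 0 stood apart. Among 9584 genes that averaged 10 CPM, 144 were at least 2-fold above and 144 at least 2-fold below all other day 0 libraries in it, against 0 to 22 genes when each of the other 7 libraries was set against its own day. Genes among the shortest 25% (up to 3592 bases) were a median of 0.42 higher in it on the log2 scale than in the other day 0 libraries, and genes among the longest 25% (8025 bases and more) differed by a median of -0.38. The giant cadherin FAT1 had 1101, 396, 1159 and 1288 CPM in the 4 day 0 libraries, whereas the elongin subunit ELOB had 126, 360.1, 129 and 124 CPM, so that replicate 2 was the lowest for the long gene and the highest for the short one. Results that rest on this library are given with and without it.

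The labelled cell type was checked first. The myoblast markers DES (1175 to 1356 CPM at day 1 and 248 to 439 at day 0), NCAM1, CDH15 and CHRNA1 were present in all 8 libraries. PAX7, the marker of quiescent muscle stem cells, had 0 counts in all of them, which allows up to 0.0173 CPM at day 1 and 0.0187 CPM at day 0 (3 counts of each group's total). Summed over its measured members, the immune marker list reached 2.78 to 3.52 CPM at day 1 and 4.49 to 5.49 CPM at day 0. The sums for endothelial markers were 18.8 to 22.5 CPM at day 1 and 13.7 to 21.8 CPM at day 0. The endothelial cadherin CDH5 had 0 counts in every library.

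Nearly as many genes were higher as lower after 1 day. Of 18214 genes tested, 8541 (46.9%) passed the threshold, 4262 (23.4%) higher and 4279 (23.5%) lower at day 1, and the median log2 fold change over all genes was 0.03. The large changes leaned upward: 1961 genes (10.8%) were at least 2-fold higher and 1326 (7.28%) at least 2-fold lower. All 4 libraries of day 1 lay above all 4 of day 0 for 3999 genes (22.0%) and below them for 3947 (21.7%). Without replicate 2 of day 0, 4990 of 18782 genes were higher (26.6%) and 4475 lower (23.8%), and 8080 of the 8541 called genes were called again in the same direction. The first principal component of these 8 libraries, with 62.6% of the variance, separated the days.

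**Figure D1:**
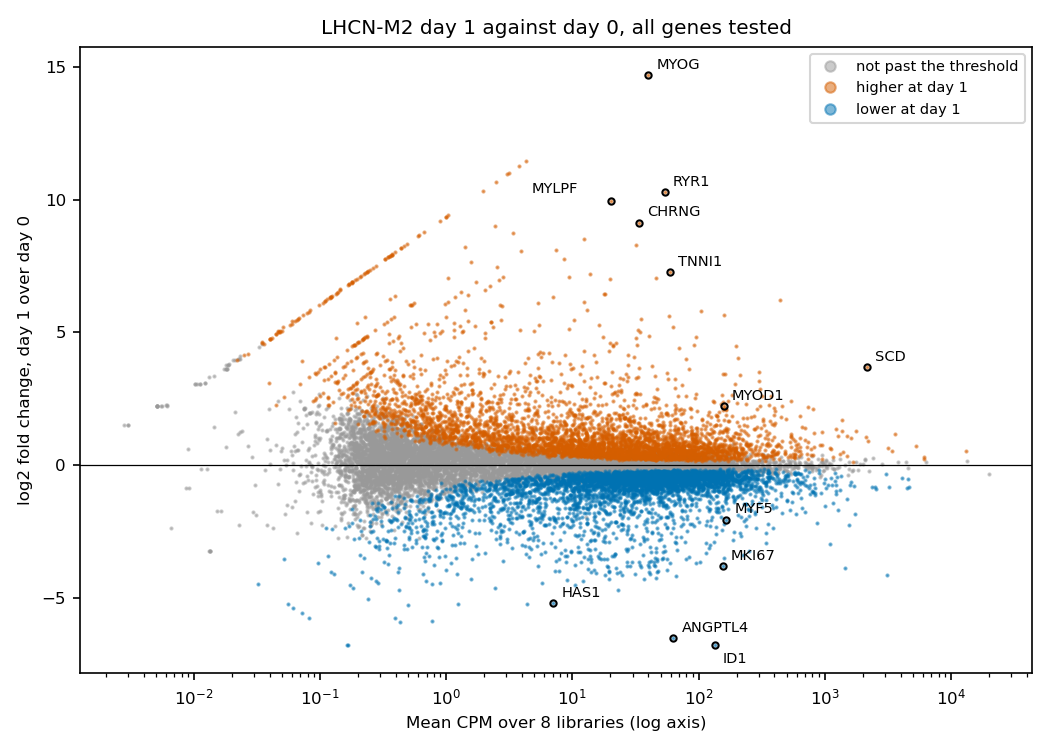
Log2 fold change of day 1 over day 0 (vertical axis) against the mean level in CPM over the 8 libraries (horizontal log axis) for the 18214 genes tested, with genes at adjusted p under 0.05 in orange (higher, 4262) and blue (lower, 4279). Labelled genes are among those named in the text: MYOG, RYR1, MYLPF and CHRNG lie at the top, and ID1 and ANGPTL4 at the bottom. Fold changes of genes with 0 counts at day 0, such as MYOG, depend on the prior count of the fit.

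The 10 genes with the largest rises among those that reached 10 CPM were MYOG, RYR1, MYLPF, CHRNG, ERBB3, SOX8, GADD45G, CHRND, TNNI1 and MYL4. MYOG, on GRCh38 chromosome 1, 203083132 to 203086036, encodes myogenin, the factor that marks commitment to differentiation. It had 89.9, 69.3, 86.1 and 73.7 CPM at day 1, against 0 counts in all 4 libraries of day 0. With 14108 counts at day 1, its level was at least 4152-fold higher than the floor of 3 counts over the day 0 group (adjusted p = 8.53e-13). RYR1, the calcium release channel of the sarcoplasmic reticulum, had 99.6, 90.6, 132 and 110.2 CPM at day 1, against 0.0811, 0.106, 0.0517 and 0.0936 CPM at day 0 (log2 fold change 10.29 ± 0.24, adjusted p = 1.76e-13). Both genes were thus at or near 0 in every day 0 library and read in every day 1 library. SOX8, a transcription factor of the SOX family, had 70.1, 56.4, 68.2 and 62.4 CPM at day 1, against 0.0541, 0.212, 0 and 0.515 CPM at day 0 (log2 fold change 8.28 ± 0.35, adjusted p = 5.9e-11). ERBB3, a receptor of neuregulins, had 24.3, 23.8, 25.4 and 24.4 CPM at day 1, against 0.0541, 0.212, 0 and 0 CPM at day 0 (log2 fold change 8.51 ± 0.34, adjusted p = 2.66e-11). In both, the 2 groups were far apart, but 1 library held most of the few day 0 reads. For ERBB3 that was replicate 2, with 8 of 10 day 0 counts, and without it the ratio of day 1 to day 0 was 1497 (95% interval from counting alone 414 to 12360). For SOX8 it was replicate 4, with 22 of 32, and without it the log2 fold change was 9.46.

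Among the 10 largest falls, NUF2, SPC25, ERCC6L, CENPA, KIF18B and UBE2C act in mitosis. The others were ID1, ANGPTL4, HAS1 and CHST1. ID1, at chromosome 20, 31605283 to 31606515, encodes an inhibitor of the myogenic factors and had 3.15, 2.65, 2.08 and 1.89 CPM at day 1, against 227, 402, 226 and 206 CPM at day 0 (log2 fold change -6.77 ± 0.25, adjusted p = 1.41e-11, and -6.48 without replicate 2 of day 0). ANGPTL4, a secreted inhibitor of lipoprotein lipase, had 1.51, 1.58, 1.38 and 0.959 CPM at day 1, against 93.3, 205, 98.5 and 100.2 CPM at day 0 (log2 fold change -6.51 ± 0.31, adjusted p = 1.8e-10). Day 0 replicate 2 was the highest library for both genes, and the groups did not overlap with or without it. HAS1, a hyaluronan synthase, had 0.561, 0.356, 0.285 and 0.288 CPM at day 1, against 13.1, 16.5, 13 and 12.2 CPM at day 0 (log2 fold change -5.20 ± 0.28, adjusted p = 8.92e-10). The sulfotransferase gene CHST1 fell by 4.44.

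**Figure D2:**
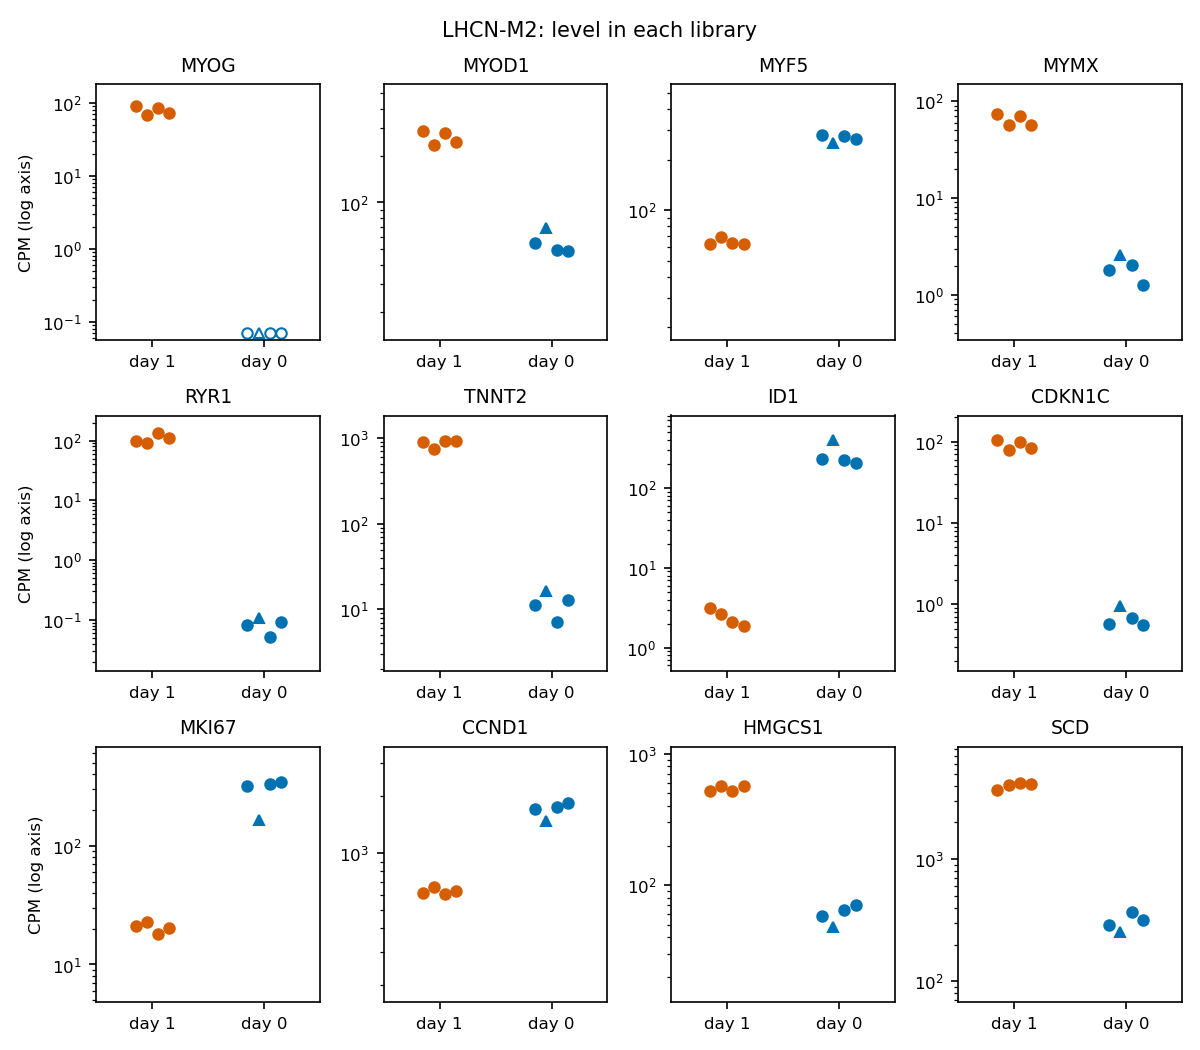
CPM on a log axis in each of the 4 libraries of day 1 (left in each panel) and of day 0 (right) for 12 named genes; libraries with 0 counts are drawn as open points at the bottom of the panel, where their height has no value, and replicate 2 of day 0 as a triangle. MYOG has no reads in any day 0 library and 69.3 to 89.9 CPM at day 1, and ID1 has 1.89 to 3.15 CPM at day 1 and 206 to 402 CPM at day 0.

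The myogenic factors moved in opposite directions. Of 19 measured myogenic regulators, 14 were higher (73.7%) and 5 lower (26.3%), beside 23.4% and 23.5% of all genes. None missed the threshold (median log2 fold change 0.77). MYOD1, the determination factor that opens muscle genes, had 286, 235, 280.3 and 245 CPM at day 1, against 55, 68.8, 49.7 and 48.9 CPM at day 0 (log2 fold change 2.23 ± 0.11, adjusted p = 3.78e-10). MYF5, the factor of dividing myoblasts, had 62.6, 69.3, 63.7 and 62.6 CPM at day 1, against 281, 250, 278 and 266 CPM at day 0 (log2 fold change -2.06 ± 0.10, adjusted p = 1.55e-10). Both groups were tight: MYOD1 was higher in all 4 libraries of day 1 and MYF5 lower in all 4. MYF6, a factor of late differentiation, had 8.07, 7.14, 8.08 and 6.28 CPM at day 1, against 13.2, 13.1, 12.7 and 15.2 CPM at day 0 (log2 fold change -0.87 ± 0.16, adjusted p = 0.00029) and was also lower. Per kilobase of the deposited gene length, MYOD1 stood at 145 and MYOG at 52.2 CPM per kilobase at day 1, MYF5 at 41.9 and MYF6 at 5.05. At day 0 the same levels per length were 30.9 for MYOD1, 0 for MYOG, 174 for MYF5 and 9.23 for MYF6, so the order of MYF5 and MYOD1 was reversed between the days.

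MEF2C, a MADS-box partner of the myogenic factors, had 82.5, 90.3, 94.9 and 102 CPM at day 1, against 19.4, 15, 21.3 and 21 CPM at day 0 (log2 fold change 2.27 ± 0.12, adjusted p = 6.36e-10). RBFOX1, a splicing regulator, rose by 2.87. Among the 5 lower members were MYOCD, a cofactor of smooth and cardiac muscle genes (-2.73, at under 1 CPM in all 8 libraries, a call lost when any of 6 of the libraries was left out), MYF5, MYF6 and the E protein gene TCF3 (-0.41). TCF3 and the other genes named below as exceptions to a list's direction were chosen after their values were seen, as were FAT1, ELOB, TNNT2, TTN, HAS2, COL3A1, HEY1, MX1, ISG15, TAGLN, MYH11, CDH15, CHRNA1, PAX7 and CDH5.

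The ID genes, whose products sequester E proteins, fell together. ID3 had 17.4, 14.6, 14.6 and 14.9 CPM at day 1, against 182, 244, 173 and 166 CPM at day 0 (log2 fold change -3.64 ± 0.14, adjusted p = 2.25e-11). ID2 had 31.4, 29.8, 29 and 28.1 CPM at day 1, against 73.2, 82.8, 69.7 and 64.3 CPM at day 0 (log2 fold change -1.29 ± 0.10, adjusted p = 5.21e-08). The fall was steepest for ID1 and smallest for ID2. In the wider list of myogenesis inhibitors, 10 of 20 measured members were higher and 7 lower. The members that rose included Notch effectors: HEYL had 159.7, 148, 174 and 152 CPM at day 1, against 28.3, 27.1, 27.1 and 28.4 CPM at day 0 (log2 fold change 2.51 ± 0.08, adjusted p = 4.84e-12), and HES1 (4.04, and 4.70 without replicate 2 of day 0) and HEY1 (1.84) also rose.

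Genes of the cell cycle fell as a block. Of 36 measured mitosis genes, 35 were lower and 1 higher, with a median log2 fold change of -3.45, and of 39 DNA replication genes all 39 were lower (median -2.29), beside 23.5% of all genes. The summed level of the mitosis list was 576 to 637 CPM at day 1 and 3610 to 4140 CPM at day 0. MKI67, the proliferation antigen, had 21, 22.9, 18 and 20.3 CPM at day 1, against 322, 164, 329 and 343 CPM at day 0 (log2 fold change -3.82 ± 0.21, adjusted p = 8.66e-10, and -3.99 without replicate 2 of day 0). In bulk RNA, fewer dividing cells and less RNA of these genes per cell cannot be told apart. CCNB1, the cyclin of mitotic entry, had 21.4, 20.9, 21.7 and 21.3 CPM at day 1, against 208, 225, 191 and 215 CPM at day 0 (log2 fold change -3.30 ± 0.12, adjusted p = 1.14e-11). CDC20, an activator of the anaphase-promoting complex, fell by 4.17, and NUF2, a kinetochore subunit, fell by 4.69. The exception was the phosphatase gene CDC25B, with 158, 143, 156 and 146 CPM at day 1, against 98.2, 135, 97.6 and 98.5 CPM at day 0 (log2 fold change 0.49 ± 0.10, adjusted p = 0.000866).

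Of the replication genes, CLSPN, a checkpoint adaptor, had 2.29, 3.92, 2.62 and 2.16 CPM at day 1, against 51.9, 29.7, 45.3 and 52.4 CPM at day 0 (log2 fold change -4.02 ± 0.22, adjusted p = 8.11e-10). RRM2, the regulatory subunit of ribonucleotide reductase, had 6.81, 8.79, 4.96 and 6.61 CPM at day 1, against 110.3, 112, 100.1 and 103 CPM at day 0 (log2 fold change -3.97 ± 0.22, adjusted p = 9.66e-10). MCM10 fell by 3.92 and the GINS subunit gene GINS2 fell by 3.53. The days did not overlap in any of these 4 genes.

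Upstream of S phase, 13 of 20 genes of the G1 cyclins, kinases, E2F and RB family were lower and 2 higher (median -1.10). CCND1, the D-type cyclin induced by growth factors, had 614, 659, 610.3 and 633 CPM at day 1, against 1703, 1470, 1756 and 1829 CPM at day 0 (log2 fold change -1.43 ± 0.07, adjusted p = 3.59e-10). E2F1, an activator of S phase genes, had 7.07, 6.79, 5.19 and 6.01 CPM at day 1, against 55.2, 61.6, 44.3 and 49.8 CPM at day 0 (log2 fold change -3.07 ± 0.14, adjusted p = 1.14e-10), and log2 fold changes were -3.52 for MYBL2, -3.27 for CDC25A and -3.05 for CCNE2. The 2 that rose were cyclin D2, CCND2 (1.25), and the pocket protein gene RBL2 (0.75).

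Inhibitors of the cycle were mixed, with 8 of 13 higher (61.5%) and 4 lower (30.8%), beside 23.4% and 23.5% of all genes. CDKN1C, which encodes the kinase inhibitor p57, had 104, 78.3, 97.5 and 83.3 CPM at day 1, against 0.568, 0.955, 0.671 and 0.562 CPM at day 0 (log2 fold change 7.04 ± 0.16, adjusted p = 1.75e-13). GADD45G, a growth arrest gene, had 17.7, 12.4, 16.6 and 12.6 CPM at day 1, against 0, 0.212, 0 and 0 CPM at day 0 (log2 fold change 8.09 ± 0.43, adjusted p = 6.46e-10). All 8 of its day 0 counts were in replicate 2, and without that library it was at least 603-fold higher than the floor of 3 counts over the group. CDKN1A, which encodes p21 and is a MYOD1-responsive inhibitor, had 1361, 1295, 1421 and 1334 CPM at day 1, against 897, 1004, 839.9 and 831 CPM at day 0 (log2 fold change 0.60 ± 0.07, adjusted p = 3.7e-06). The days did not overlap for any of the 3. GAS1 rose by 2.13 and BTG1 by 1.99, and the 4 lower members were CDKN2D (-1.14), GADD45B (-1.06), CDKN2C (-0.71) and GADD45A (-0.45). CDKN2A, the p16 and ARF gene, had 313, 258, 272 and 285 CPM at day 1, against 269.5, 463, 266 and 295 CPM at day 0 (log2 fold change -0.20, adjusted p = 0.305). That is the gene of this list that did not pass, and its groups overlapped.

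The genes used to immortalise the line were read as well. TERT counts, 536, 509, 535 and 533 CPM at day 1, against 1434, 688, 1173 and 1348 CPM at day 0 (log2 fold change -1.14 ± 0.17, adjusted p = 6.84e-05), were lower in all 4 day 1 libraries than in any of day 0. The lowest day 0 value was that of replicate 2, and the fold change was -1.30 without it. CDK4 had 97.4, 99, 87 and 102 CPM at day 1, against 95, 107, 80.4 and 94.5 CPM at day 0 and did not pass (log2 fold change 0.03, adjusted p = 0.833). The counts do not separate reads of an introduced copy from those of the cell's own gene.

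Targets of growth factor signalling through ERK were mostly lower: 18 of 24 measured members fell and 1 rose (median -1.04). AREG, a ligand of the epidermal growth factor receptor, had 0.195, 0.312, 0.326 and 0.0479 CPM at day 1, against 7.57, 9.04, 9.24 and 8.0 CPM at day 0 (log2 fold change -5.22 ± 0.32, adjusted p = 3.85e-09), and the transcription factor gene ETV4 fell by 2.52 and the urokinase receptor gene PLAUR fell by 2.38. The member that rose was the phosphatase gene DUSP4 (0.29). Immediate early genes had 5 higher and 12 lower of 25, beside 23.4% and 23.5% of all genes. Their higher share was below that of all genes. FOSL1, an AP-1 subunit, had 30.2, 28, 24.8 and 22 CPM at day 1, against 196, 184, 214 and 211 CPM at day 0 (log2 fold change -2.94 ± 0.10, adjusted p = 9.66e-12). JUND, another AP-1 subunit, had 119, 96.6, 111 and 104 CPM at day 1, against 30.8, 49.2, 28.9 and 31.3 CPM at day 0 (log2 fold change 1.62 ± 0.14, adjusted p = 2.44e-07). FOSL1 and JUND were thus both without overlap between the days and in opposite directions. Of 23 targets and members of the YAP and TEAD pathway, 9 fell (39.1%) and 7 rose (30.4%), beside 23.5% and 23.4% of all genes, and without replicate 2 of day 0 the counts were 8 higher and 13 lower. CTGF, a matricellular target of YAP, had 68.5, 60.9, 58.2 and 61.9 CPM at day 1, against 380.1, 357, 356 and 372 CPM at day 0 (log2 fold change -2.55 ± 0.07, adjusted p = 9.87e-13), and the TEAD cofactor gene VGLL2, which is restricted to skeletal muscle, had 22, 21.8, 23.1 and 21.3 CPM at day 1, against 1.60, 1.41, 1.76 and 1.87 CPM at day 0 (log2 fold change 3.73 ± 0.10, adjusted p = 8e-13).

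Most fusion genes rose. MYMX, the small fusogenic protein myomixer, had 74.2, 56.1, 70.4 and 56.3 CPM at day 1, against 1.78, 2.55, 2.04 and 1.26 CPM at day 0 (log2 fold change 5.08 ± 0.19, adjusted p = 1.51e-11). MYMK, its membrane partner myomaker, had 5.12, 3.83, 5.92 and 5.13 CPM at day 1 and 0 counts at day 0, at least 261-fold higher than the floor. MYMX therefore had reads in every library of both days, and MYMK in none of day 0. Over the fusion and adhesion list, 13 of 21 were higher and 3 lower (median 0.80), with the adhesion gene VCAM1 at 2.48. The 3 lower members were NFATC2 (-2.65, and -3.58 without replicate 3 of day 1), the fibronectin receptor subunit ITGA5 (-1.33) and N-cadherin, CDH2 (-0.97). NFATC2 averaged only 0.243 CPM at day 1 and 1.57 CPM at day 0, and its groups overlapped.

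Most measured contractile genes were higher. In the sarcomere list, 32 of 48 measured members of 52 were higher and 3 lower, with a median log2 fold change of 2.52, or 2.14 if genes without reads on 1 day take their bound as value, beside 23.4% and 23.5% of all genes. Of these 48, 16 averaged under 1 CPM on both days. TNNI1, the slow troponin I, had 128, 93.4, 121 and 128 CPM at day 1, against 0.595, 0.875, 0.826 and 0.749 CPM at day 0 (log2 fold change 7.26 ± 0.14, adjusted p = 7.53e-14). MYLPF, the fast regulatory light chain, had 44.6, 32.7, 44.9 and 40.3 CPM at day 1, against 0.108, 0, 0 and 0.0468 CPM at day 0 (log2 fold change 9.94 ± 0.28, adjusted p = 8.69e-13). Without replicate 1 of day 0, which held 4 of its 6 day 0 counts, the ratio for MYLPF was 2536 (95% interval from counting alone 702 to 20950). MYL4, the embryonic light chain, had 31.5, 21, 29.5 and 28 CPM at day 1, against 0.0541, 0.265, 0.284 and 0.140 CPM at day 0 (log2 fold change 7.19 ± 0.23, adjusted p = 3.16e-12). TNNT2, the cardiac troponin T that embryonic skeletal muscle also uses, had 906, 755, 921 and 915 CPM at day 1, against 11.1, 16.3, 7.05 and 12.9 CPM at day 0 (log2 fold change 6.20 ± 0.21, adjusted p = 5.38e-12). Day 12 levels of these 4 genes were above all their day 1 values: TNNI1 averaged 1918 ± 103 CPM, MYLPF 1170 ± 75 CPM, MYL4 417 ± 20.5 CPM and TNNT2 1495 ± 76.9 CPM at day 12 (SD, n = 4).

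The heavy chains were still low. MYH3, the embryonic heavy chain, had 8.39, 5.76, 5.49 and 5.30 CPM at day 1, against 0.352, 0.875, 1.11 and 0.702 CPM at day 0 (log2 fold change 3.03 ± 0.23, adjusted p = 3.06e-08), and averaged 2496 ± 204 CPM at day 12 (SD, n = 4). MYH7, the slow heavy chain, had 3.51, 3.94, 6.08 and 5.78 CPM at day 1 and 1 count in all of day 0, a ratio of 760.3 (95% interval from counting alone 136 to 30060). MYBPC2, the fast myosin-binding protein C, had 5.39, 6.83, 6.63 and 6.49 CPM at day 1 and 0 counts at day 0, at least 331-fold higher. ACTN2, the Z-disc actinin, had a ratio of 438 (95% interval from counting alone 78.2 to 17330), also on 1 count at day 0. ACTC1, the actin of cardiac and developing skeletal muscle, was abundant at both days, with 2963, 2691, 3005 and 2923 CPM at day 1, against 1428, 1587, 1237 and 1291 CPM at day 0 (log2 fold change 1.06 ± 0.08, adjusted p = 2.45e-08). TTN, the titin gene, had 74.7, 73.3, 96.3 and 82.9 CPM at day 1, against 9.47, 4.03, 9.71 and 8.43 CPM at day 0 (log2 fold change 3.37 ± 0.29, adjusted p = 1.54e-07). The 3 lower members were the tropomyosin TPM3 (-1.32), MYOT (-1.44, a call lost when any of 4 of the 8 libraries was left out) and the kinase gene MYLK2, which had 2 counts at day 1 and 118 at day 0. Actin and myosin genes are multigene families, and reads that near-identical members share may be split between them.

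In the list of sarcomere assembly factors, which holds chaperones, regulators and structural proteins, 13 of 21 were higher and 3 lower (median 0.93). UNC45B, the myosin chaperone, had 6.46, 8.61, 8.44 and 6.59 CPM at day 1 and 0 counts at day 0, at least 395-fold higher. SMYD1, a muscle methyltransferase, had 20.4, 24.6, 27.7 and 24.7 CPM at day 1, against 0, 0.424, 0.413 and 0.515 CPM at day 0 (log2 fold change 6.13 ± 0.30, adjusted p = 2.86e-10). KLHL40 was at least 36.5-fold higher, at a mean of 0.718 CPM at day 1, and ANKRD2 rose by 4.98. Replicate 2 of day 0 held 4 of the 6 day 0 counts of ANKRD2, and without it the ratio was 80.2 (95% interval from counting alone 21.9 to 666). The 3 lower members were TRIM55 (-0.75), MYPN (-0.46) and CRYAB (-0.32, a call lost when any of 3 of the 8 libraries was left out).

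Genes of the triad, where membrane voltage is coupled to calcium release, also rose. In excitation-contraction coupling, 16 of 25 were higher and 1, ASPH (-0.27), was lower (median 1.44). Without replicate 2 of day 0 the counts were 17 higher and 2 lower. Of the 25 members, 6 averaged under 1 CPM on both days. CACNA1S, the voltage sensor of the T-tubule, had 5.34, 4.74, 8.58 and 5.54 CPM at day 1 and 0 counts at day 0, at least 319-fold higher. SCN4A, the muscle sodium channel, was at least 205-fold higher, and CACNG1 at least 38.9-fold, at a mean of 0.745 CPM at day 1. Thus RYR1, CACNA1S, CACNG1 and SCN4A had 0 to 13 counts over the 4 day 0 libraries and were read in all 4 day 1 libraries.

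Genes of the neuromuscular junction rose: 11 of 12 were higher and none lower (median 0.99). CHRNG, the fetal gamma subunit of the acetylcholine receptor, had 69.2, 61.2, 74.8 and 62.3 CPM at day 1, against 0.216, 0.0530, 0.207 and 0 CPM at day 0 (log2 fold change 9.14 ± 0.28, adjusted p = 2.24e-12). CHRND, the delta subunit, had 18.7, 15, 16.9 and 18.4 CPM at day 1, against 0.0541, 0.106, 0.103 and 0.0468 CPM at day 0 (log2 fold change 7.75 ± 0.19, adjusted p = 3.73e-13). Both were near 0 in each day 0 library. AGRN, the organiser agrin, had 328, 189, 302 and 266 CPM at day 1, against 98.3, 109.9, 132 and 125 CPM at day 0 (log2 fold change 1.22 ± 0.14, adjusted p = 4.33e-06), and COLQ, the collagen tail of acetylcholinesterase, rose by 1.68. The member that did not pass was the adult epsilon subunit gene CHRNE (log2 fold change 1.05, adjusted p = 0.431). Without replicate 3 of day 0, which held 20 of its 23 day 0 counts, CHRNE passed in edgeR's quasi-likelihood test (adjusted p = 0.0266), with a ratio of 13 (95% interval from counting alone 4.23 to 65).

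In the dystrophin complex, 10 of 17 were higher and 1, DTNB (-0.63), was lower. SNTB1, a syntrophin, rose by 2.89, the dystrophin gene DMD by 1.68 and the dystroglycan gene DAG1 by 1.65. Muscle-type energy genes had 10 of 16 higher (62.5%) and 2 lower (12.5%), beside 23.4% and 23.5% of all genes. Of these 16, 7 averaged under 1 CPM on both days, and with a stricter filter on low counts 6 were higher. The 2 genes that fell were PGM1 (-0.40) and PHKA1 (-0.25, a call lost when any of 7 of the 8 libraries was left out). FABP3, the fatty acid binding protein of muscle, had 185, 183, 173 and 195 CPM at day 1, against 5.25, 8.62, 5.86 and 6.16 CPM at day 0 (log2 fold change 4.83 ± 0.14, adjusted p = 8.9e-13). COX6A2, a muscle subunit of cytochrome oxidase, and AMPD1, AMP deaminase, had 0 counts at day 0 and were at least 52.4-fold and 36.2-fold higher, at under 2 CPM.

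**Figure D3:**
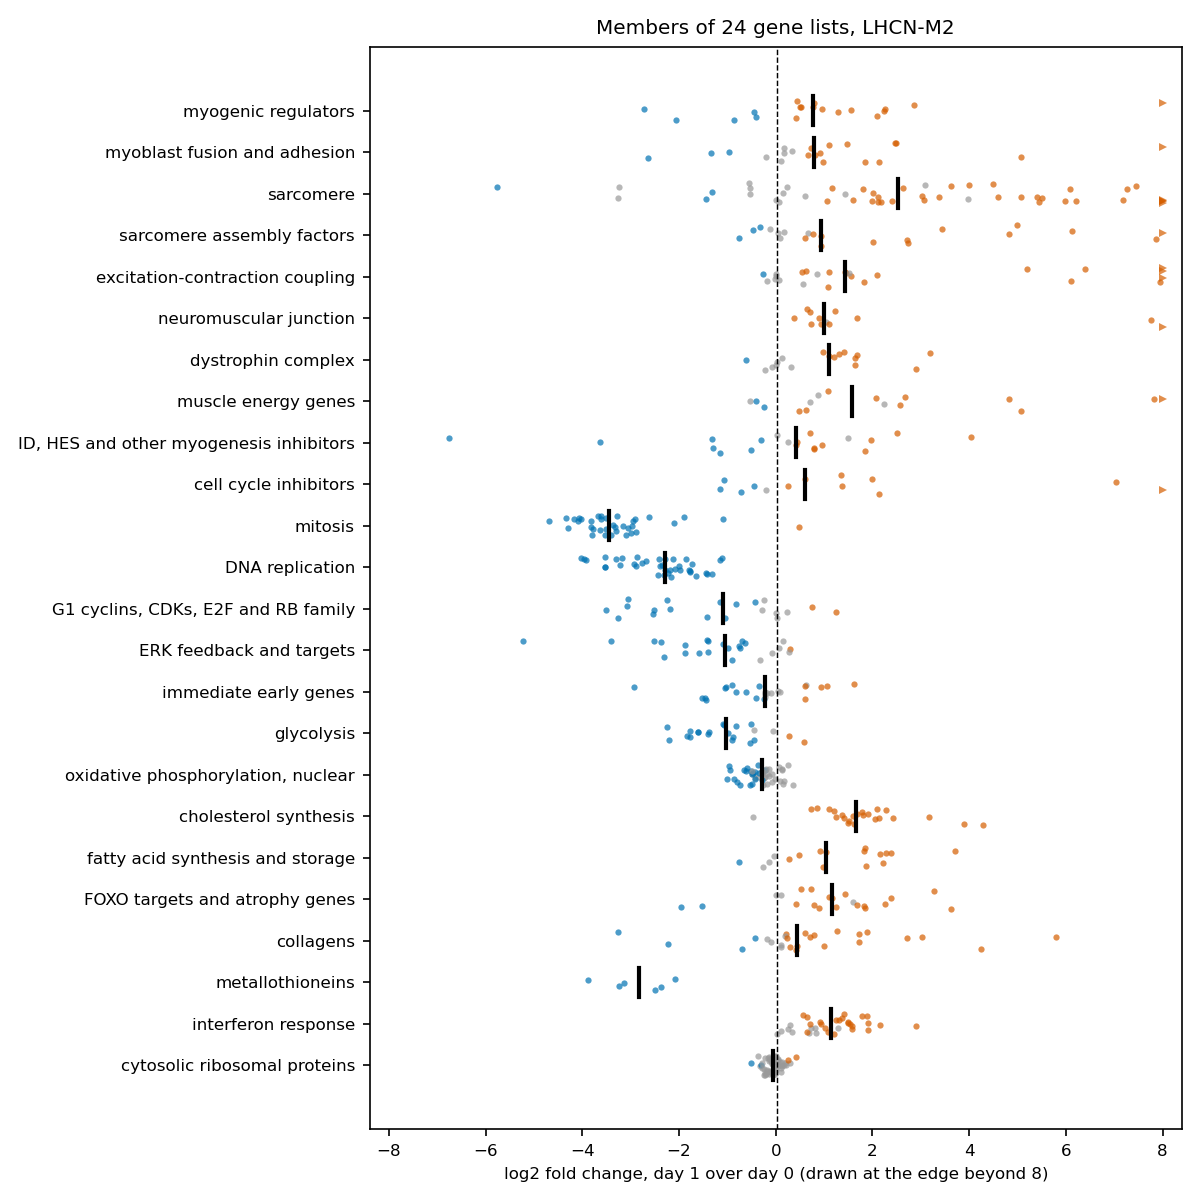
Log2 fold change of day 1 over day 0 for each measured member of 24 gene lists (points; orange higher, blue lower, grey not past the threshold) with the median of each list as a black bar and the median of all 18214 genes, 0.03, as a dashed line. Points beyond 8 are drawn at the edge as arrows. Members of mitosis and DNA replication lie left of 0 with 1 exception, CDC25B, and members of cholesterol synthesis lie right of 0 with 1 exception, PMVK, which did not pass.

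Most glycolytic enzyme genes fell. Of 22 glycolysis genes, 18 were lower and 2 higher (median -1.03), and their summed level was 8850 to 9160 CPM at day 1 and 18900 to 24300 CPM at day 0. LDHA, lactate dehydrogenase A, had 551, 542, 538 and 522 CPM at day 1, against 2477, 2849, 2489 and 2402 CPM at day 0 (log2 fold change -2.25 ± 0.07, adjusted p = 4.59e-12). PFKP, the platelet form of phosphofructokinase, had 59.2, 55.2, 56.6 and 56.6 CPM at day 1, against 277, 257, 256 and 260.3 CPM at day 0 (log2 fold change -2.21 ± 0.07, adjusted p = 2.15e-12), and ENO1, enolase 1, had 794, 741, 719 and 777 CPM at day 1, against 2521, 3458, 2375 and 2488 CPM at day 0 (log2 fold change -1.84 ± 0.11, adjusted p = 2.34e-09). In all 3 the groups were apart. The 2 members that rose were ALDOC (0.59) and the glucose transporter gene SLC2A3 (0.28).

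Nuclear genes of oxidative phosphorylation had no member higher and 21 of 47 lower (median -0.29). This count rests on replicate 2 of day 0, whose summed level of the list was 6520 CPM against 4370 to 4620 CPM in the other day 0 libraries and 3820 to 4120 CPM at day 1. Without that library 8 members were higher and 17 lower (median -0.10). CYCS, cytochrome c, had 82.7, 80.2, 74.3 and 81 CPM at day 1, against 151, 191, 140 and 156 CPM at day 0 (log2 fold change -1.0 ± 0.09, adjusted p = 2.51e-07, and -0.89 without it). PPARGC1A, the coactivator of mitochondrial biogenesis, had 4.05, 3.18, 2.97 and 3.88 CPM at day 1, against 0.595, 1.67, 0.387 and 0.702 CPM at day 0 (log2 fold change 2.07 ± 0.35, adjusted p = 0.000168, and 2.65 without it). Of 13 mitochondrially encoded genes, MT-ND3 alone passed (0.49); without the library 4 were higher and 1 lower.

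Genes of lipid synthesis rose. Of 24 cholesterol synthesis genes, 23 were higher and none lower (median 1.65), the exception being PMVK (log2 fold change -0.48, adjusted p = 0.0531). Their summed level was 7130 to 7380 CPM at day 1 and 2010 to 2170 CPM at day 0. HMGCS1, the synthase that makes HMG-CoA, had 519.9, 568, 525 and 567 CPM at day 1, against 58.2, 47.9, 65 and 70.4 CPM at day 0 (log2 fold change 3.17 ± 0.11, adjusted p = 6.65e-12). INSIG1, the sterol-regulated anchor of SREBP processing, had 912, 942, 860.1 and 909.8 CPM at day 1, against 157, 172, 179.7 and 166 CPM at day 0 (log2 fold change 2.43 ± 0.07, adjusted p = 7.67e-13). Both were without overlap between the days. Fatty acid synthesis had 13 of 17 higher and 1, the lipid droplet gene PLIN2 (-0.75), lower: SCD, the delta-9 desaturase, had 3683, 4065, 4178 and 4113 CPM at day 1, against 290.1, 252, 372 and 317 CPM at day 0 (log2 fold change 3.70 ± 0.12, adjusted p = 2.88e-12), and LPIN1 rose by 2.38, ACSS2 by 2.28 and FADS1 by 2.22. At day 12 SCD averaged 964 ± 92.1 CPM and HMGCS1 194 ± 12.4 CPM (SD, n = 4), below the day 1 level of each.

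FOXO targets and atrophy genes had 16 of 21 higher and 2 lower (median 1.16). FBXO32, the atrophy ubiquitin ligase atrogin-1, had 158, 155, 153 and 158 CPM at day 1, against 11.5, 11.6, 13.7 and 13.7 CPM at day 0 (log2 fold change 3.63 ± 0.08, adjusted p = 1.75e-13). PIK3IP1, an inhibitor of PI3 kinase, had 57.2, 62.4, 53.8 and 56.5 CPM at day 1, against 5.71, 7.53, 4.93 and 5.66 CPM at day 0 (log2 fold change 3.27 ± 0.13, adjusted p = 2.39e-11). The 2 lower members were the mitophagy gene BNIP3 (-1.96) and the insulin receptor substrate gene IRS2 (-1.53). In the list of the IGF system, which also holds HMGA1 and HMGA2, 6 of 17 were higher (35.3%) and 6 lower (35.3%). The shares of all genes were 23.4% and 23.5%. Without replicate 2 of day 0 the list had 6 higher and 8 lower. IGFBP5, an IGF binding protein of differentiating muscle, had 58.8, 66.7, 63.2 and 57.3 CPM at day 1, against 2.43, 0.849, 2.61 and 2.90 CPM at day 0 (log2 fold change 4.80 ± 0.23, adjusted p = 2.28e-10), and IGF2 had 30.5, 34.1, 50.2 and 40.8 CPM at day 1, against 14.3, 6.29, 17.2 and 18.1 CPM at day 0 (log2 fold change 1.48 ± 0.30, adjusted p = 0.000798). Replicate 2 was the lowest day 0 library for both genes. HMGA2, a chromatin protein of growing cells, had 59.5, 64.8, 49.96 and 58.4 CPM at day 1, against 370.2, 312, 400.3 and 410.4 CPM at day 0 (log2 fold change -2.68 ± 0.11, adjusted p = 3.54e-11), and HMGA1 fell by 1.69.

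Among growth factors and receptors, 11 of 23 were higher (47.8%) and 8 lower (34.8%), beside 23.4% and 23.5% of all genes. Their summed level was 1290 to 1330 CPM at day 1 and 1620 to 1990 CPM at day 0. FGFR4, the fibroblast growth factor receptor of muscle precursors, had 64.2, 49.1, 58.2 and 51.5 CPM at day 1, against 6.90, 9.68, 9.40 and 7.54 CPM at day 0 (log2 fold change 2.73 ± 0.12, adjusted p = 1.04e-10). Of the TGF-beta and BMP genes, 10 of 21 were lower (47.6%) and 5 higher (23.8%), the higher share near the 23.4% of all genes. The BMP antagonist NOG fell by 2.37, and TGFB3 rose by 2.15. Notch genes had 5 of 15 higher (33.3%) and 3 lower (20%), near the 23.4% and 23.5% of all genes. The receptor NOTCH3 had 102, 86, 128 and 98 CPM at day 1, against 8.71, 6.84, 11.1 and 11.1 CPM at day 0 (log2 fold change 3.45 ± 0.18, adjusted p = 4.85e-10), the ligand DLL1 had 53.7, 43.3, 53.1 and 52 CPM at day 1, against 5.87, 4.72, 5.66 and 4.21 CPM at day 0 (log2 fold change 3.31 ± 0.12, adjusted p = 1.27e-11), and DTX4 rose by 3.50, JAG2 by 2.96 and JAG1 by 1.08. The lower ones were NUMB (-0.50), RBPJ (-0.45) and LFNG (-0.40, a call lost when any of 6 of the 8 libraries was left out). Of 26 WNT genes, 8 were higher (30.8%) and 7 lower (26.9%), also near those shares of all genes, among them the co-receptor LRP5 (2.39) and the antagonist DKK1 (-2.21).

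More collagen genes rose than fell, and the other matrix genes were mixed. Of 26 collagen genes, 17 were higher (65.4%) and 4 lower (15.4%), beside 23.4% and 23.5% of all genes (median 0.44). COL14A1, a fibril-associated collagen, had 196, 195, 211 and 213 CPM at day 1, against 3.0, 2.94, 5.63 and 3.14 CPM at day 0 (log2 fold change 5.79 ± 0.18, adjusted p = 3.03e-12). COL3A1, a fibrillar collagen, had 2176, 1989, 2134 and 2093 CPM at day 1, against 639, 590.1, 657 and 674 CPM at day 0 (log2 fold change 1.71 ± 0.06, adjusted p = 1.05e-11). The 4 lower genes were COL13A1 (-3.27), COL6A3 (-2.22), COL4A2 (-0.71) and COL4A1 (-0.43). In the list of other matrix genes, 13 of 32 were higher and 8 lower: LAMA5, a laminin chain, had 171, 158, 201 and 178 CPM at day 1, against 9.06, 5.60, 8.19 and 8.05 CPM at day 0 (log2 fold change 4.52 ± 0.16, adjusted p = 6.65e-12), whereas HAS2, the main hyaluronan synthase, had 45.6, 49, 44.6 and 47.7 CPM at day 1, against 344, 272, 356 and 349 CPM at day 0 (log2 fold change -2.82 ± 0.09, adjusted p = 5.22e-12). Proteases were mixed, with 8 of 22 higher (36.4%) and 6 lower (27.3%), beside 23.4% and 23.5% of all genes. MMP11 had 62.7, 55.9, 61.8 and 62.9 CPM at day 1, against 5.46, 6.74, 7.05 and 4.94 CPM at day 0 (log2 fold change 3.33 ± 0.11, adjusted p = 4.59e-12), and the plasminogen activators PLAT and PLAU were lower (-2.92 and -1.86).

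Genes that mark fibroblasts rose in the same libraries: 9 of 11 measured members of 14 were higher and 1, THY1 (-0.46), lower, and the summed level was 3880 to 4110 CPM at day 1 and 1590 to 2120 CPM at day 0. DPP4, a surface peptidase, had 377, 396, 386 and 387 CPM at day 1, against 36.9, 32.9, 40.5 and 36.4 CPM at day 0 (log2 fold change 3.40 ± 0.08, adjusted p = 1.75e-13), and DCN, the proteoglycan decorin, had 306, 293, 273 and 275 CPM at day 1, against 52.8, 59.2, 55.6 and 49.7 CPM at day 0 (log2 fold change 2.40 ± 0.07, adjusted p = 2.59e-12). The list shares DCN and LUM with the matrix list and COL3A1 with the collagens. Smooth muscle markers had 5 of 9 higher (55.6%) and 2 lower (22.2%), beside 23.4% and 23.5% of all genes. The lower share was thus near that of all genes. ACTA2, smooth muscle actin, had 138, 126, 139.6 and 146 CPM at day 1, against 23.3, 22.9, 20.2 and 24.5 CPM at day 0 (log2 fold change 2.60 ± 0.08, adjusted p = 3.44e-12), while TAGLN and MYH11 did not pass. The fibroblast markers DPT and PI16 had 0 counts on both days, and the smooth muscle calponin CNN1 had 2.0 counts over the 4 libraries of day 1 and 22 over those of day 0. Whether other cells contribute these reads was not tested.

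Of 20 chaperones of the endoplasmic reticulum, 16 were lower and 1, DNAJB9 (0.36), higher (median -0.53). HSP90B1, the chaperone GRP94, had 823, 759, 748 and 777 CPM at day 1, against 1549, 1967, 1561 and 1571 CPM at day 0 (log2 fold change -1.10 ± 0.08, adjusted p = 3.06e-08). Heat shock genes had 11 of 18 lower (61.1%) and 3 higher (16.7%), with the mitochondrial chaperonin gene HSPD1 at -1.06. ATF4 targets had 14 of 26 lower (53.8%) and 6 higher (23.1%). Of all genes, 23.5% were lower and 23.4% higher. SLC7A5, the leucine transporter, had 487, 455, 523 and 502 CPM at day 1, against 165, 136, 151 and 169 CPM at day 0 (log2 fold change 1.66 ± 0.09, adjusted p = 4.87e-10), and PHGDH, the entry enzyme of serine synthesis, fell by 1.33.

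Metallothioneins, the small proteins that bind zinc and copper, were lower in all 6 measured genes of 9 (median -2.82), and 5 were lower without replicate 2 of day 0. MT2A had 199, 186, 177 and 171 CPM at day 1, against 2267, 4992, 1789 and 1839 CPM at day 0 (log2 fold change -3.89 ± 0.29, adjusted p = 3.96e-08), and the summed level of the list was 246 to 276 CPM at day 1. At day 0 it was 6180 CPM in replicate 2 and 2330 to 2750 CPM in the other libraries, so the groups were also apart without it (MT2A log2 fold change -3.40). Near-identical metallothionein genes may share reads. NRF2 targets and ferritin had 11 of 15 higher and 2 lower: HMOX1, heme oxygenase, had 419, 380.5, 420 and 386 CPM at day 1, against 137, 189, 162 and 132 CPM at day 0 (log2 fold change 1.37 ± 0.10, adjusted p = 4.34e-08), and FTL, the ferritin light chain, had 5395, 5022, 4872 and 4767 CPM at day 1, against 1918, 3162, 1986 and 1753 CPM at day 0 (log2 fold change 1.19 ± 0.15, adjusted p = 8.26e-06).

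Interferon-stimulated genes rose with a wide spread between libraries of a day. Of 34 genes, 24 were higher (70.6%) and none lower (median 1.15), beside 23.4% of all genes higher. The days did not overlap in 10 of the 34, fewer than were called. Over all genes the 2 counts were close, with 3999 above day 0 without overlap and 4262 called higher. Their summed level was 9801, 5488, 8372 and 7579 CPM in the 4 day 1 libraries and 2356, 4593, 4286 and 3119 CPM in those of day 0. MX1, an antiviral GTPase, had 265, 74.1, 246 and 154 CPM at day 1, against 11, 79.7, 109 and 49.9 CPM at day 0 (log2 fold change 1.57 ± 0.49, adjusted p = 0.0157), so that replicate 2 of day 1 lay below replicates 2 and 3 of day 0. ISG15, a ubiquitin-like modifier, had 363, 105, 286 and 206 CPM at day 1, against 24, 296, 149 and 78.4 CPM at day 0 and did not pass (log2 fold change 0.81, adjusted p = 0.225), while without replicate 2 of day 0 its log2 fold change was 1.53 (adjusted p = 0.00345). GBP2, a guanylate-binding protein, had 123, 102, 119 and 112 CPM at day 1, against 26.7, 37.2, 28.3 and 28.7 CPM at day 0 (log2 fold change 1.92 ± 0.10, adjusted p = 7.05e-10), without overlap.

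**Figure D4:**
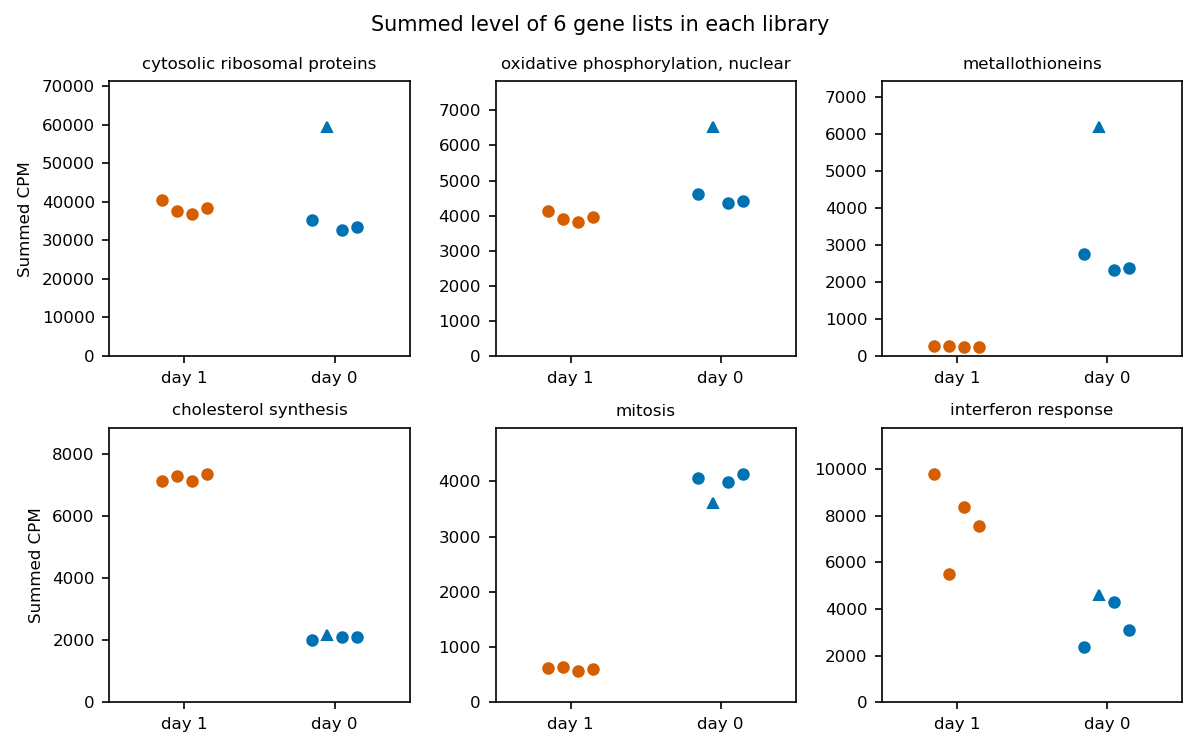
Summed CPM of the measured members of 6 lists in each library of day 1 (left in each panel) and day 0 (right), with replicate 2 of day 0 as a triangle; each axis starts at 0. In ribosomal proteins, oxidative phosphorylation and metallothioneins replicate 2 lies above the other day 0 libraries, while in cholesterol synthesis and mitosis the days are apart with or without it. Interferon response varies within both days, 5490 to 9800 CPM at day 1 and 2360 to 4590 CPM at day 0.

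The ribosomal protein genes are the group whose call rested most on replicate 2 of day 0. With all libraries 2 of 57 were higher (RPS27 and RPS23) and 2 lower (RPSA and RPS7), with a median of -0.05, and without it 36 were higher and 1 lower, with a median of 0.20. When 1 of the 8 libraries was left out, the call was lost in 4 cases for RPS27, 6 for RPS23, 4 for RPSA and 5 for RPS7. Their summed level was 59400 CPM in replicate 2, 32700 to 35200 CPM in the other day 0 libraries and 36900 to 40500 CPM at day 1. Ribosomal protein gene families hold near-identical copies that may share reads. Genes of ribosome biogenesis did not depend on it in direction: 23 of 30 were lower with it and 26 without it, and none was higher in either. FBL, the nucleolar methyltransferase fibrillarin, had 38.5, 37.9, 41.4 and 43.3 CPM at day 1, against 85.1, 143, 78.4 and 79.5 CPM at day 0 (log2 fold change -1.26 ± 0.17, adjusted p = 1.65e-05, and -0.99 without replicate 2).

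The same day was compared between the lines for 10 genes, in a single fit of all 24 libraries on 16608 symbols matched between the species, 13347 of them tested. The difference of the first-day log2 fold change, LHCN-M2 minus C2C12, passed for 6779 genes (50.8%) and for all 10. ID1 had a log2 fold change of -6.73 in LHCN-M2 and 0.62 in C2C12, a difference of -7.35 ± 0.28 (adjusted p = 7.26e-17). CCND1 had -1.39 in LHCN-M2 and 1.08 in C2C12, a difference of -2.47 ± 0.09 (adjusted p = 2.62e-17). Both genes thus lay on opposite sides of 0 in the 2 lines. MKI67 had -3.78 in LHCN-M2 and -0.22 in C2C12, a difference of -3.56 ± 0.23 (adjusted p = 1.51e-12). HMGCS1 had 3.21 in LHCN-M2 and 0.61 in C2C12, a difference of 2.60 ± 0.12 (adjusted p = 1.38e-15).

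For 2 contractile genes the larger value was that of the mouse line. ACTC1 had a log2 fold change of 1.10 in LHCN-M2 and 3.27 in C2C12, a difference of -2.17 ± 0.24 (adjusted p = 2.39e-08). MYH3 had 3.06 in LHCN-M2 and 4.58 in C2C12, a difference of -1.51 ± 0.36 (adjusted p = 0.00104). The differences for MYOD1 and CDKN1A were 1.21 ± 0.19 (adjusted p = 5e-06) and 0.25 ± 0.09 (adjusted p = 0.0194), both larger in LHCN-M2. MYOG was at least 12.02 higher on the log2 scale in LHCN-M2, which had no day 0 reads of it, and 1.88 higher in C2C12, whose day 0 libraries averaged 4.11 CPM. MYMK was at least 8.03 higher in LHCN-M2 and 2.54 higher in C2C12. The lines differ in species, in immortalisation and in the annotation their reads were counted on, and these cannot be told apart here.

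**Figure D5:**
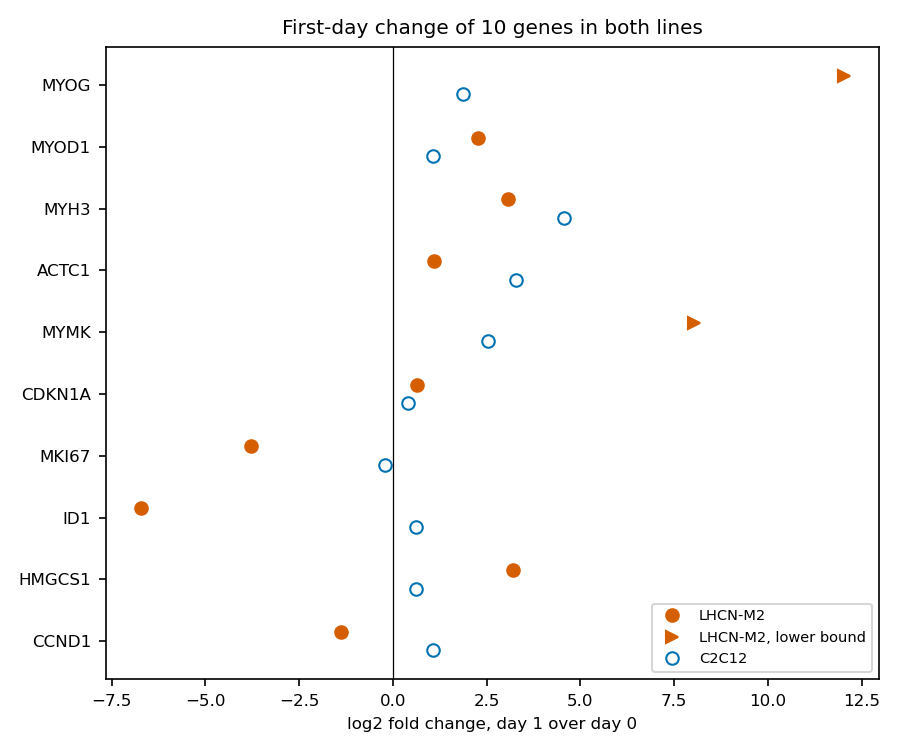
First-day log2 fold change (day 1 over day 0) of 10 genes in LHCN-M2 (filled, upper of each pair) and C2C12 (open, lower), from the fit of all 24 libraries; triangles mark lower bounds for MYOG and MYMK, which had 0 counts at day 0 in LHCN-M2. ID1 and CCND1 lie on opposite sides of 0 in the 2 lines, and ACTC1 and MYH3 lie further right in C2C12.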

How the data were processed

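The authors deposited raw read counts per gene for LHCN-M2 and C2C12, with gene names, positions and lengths for the human table. Per the submitters' processing notes, the tools were featureCounts 2.0.6, StringTie 2.2.3, HISAT2 2.2.1 and fastp, with GRCh38 named as the build; the strand setting of the counting is not given in the sources used here, so overlapping and antisense genes cannot be told apart. Per the labels, mRNA was captured on poly-T beads and primed with random hexamers.

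The counts were tested with edgeR 4.0.16 (R 4.3.3; quasi-likelihood test, trimmed mean of M values, its default expression filter) in 1 fit of the 12 LHCN-M2 libraries, which leaves 18214 of 58735 rows; the tested genes hold 99.936% of the counts. DESeq2 1.42.0 was an alternative. Between lines, symbols were matched by upper case and fitted together. On simulated counts, the LHCN-M2 fit called 64% of 100 genes changed by a log2 fold of 1 and 84% of 100 changed by 2, of 18214 genes. It also called 7 unchanged genes. The changed genes were drawn above a minimum mean count, equally up and down, and no library was made to stand apart. In the data a far larger share of genes was called, so these rates need not hold there. Counting intervals (95%) and floors of 3 counts cover counting error only.

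The members and lists were chosen with earlier results of these data known. Named genes are the 10 largest rises and falls that passed, did not overlap and reached 10 CPM, up to 4 called members per list with the largest change, and a fixed list; others were chosen after their values were seen. Planned descriptions of gene biotypes, transcription factors and promoter motifs were not made, because the tables used here do not hold them for the human genes. Some members of the lists are counted but not reported here by name.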

Additional observations from a re-analysis of the deposited data

Results flagged for a closer look

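In 49 of 390 groups of 4 libraries, over 195 named genes, 1 library lay far from the other 3. The ratio given for each gene is the gap to the nearest library divided by the range of the group. For normally distributed values, chance alone gives such a gap in about 1 in 20 groups. That share does not apply where 1 library alone had reads, which fixes the ratio at 1.0 (GADD45G, MYH7, ACTN2 and MYLK2). Nor does it apply to genes chosen after their values were seen, such as ELOB. The far library was replicate 2 of day 0 in 32 of them and replicate 2 of day 1 in 8. Replicate 2 of day 0 was the highest library, by these ratios, for GADD45G (1.0), ID1 (0.894), ANGPTL4 (0.938), CDKN2A (0.853), MYH7 (1.0), CDC20 (0.853), JUND (0.878), PLAUR (0.9), NOG (0.841), HSP90B1 (0.947), ENO1 (0.865), RPSA (0.966), RPS7 (0.942), FBL (0.896), MT2A (0.851), FTL (0.835), DES (0.906), ALDOC (0.891), CDC25B (0.977), CDH15 (0.929), CDKN2C (0.882), CHRNA1 (0.865), CRYAB (0.923), ELOB (0.979) and GADD45B (0.832). Replicate 2 of day 0 was the lowest library, by these ratios, for MKI67 (0.88), DAG1 (0.848), MBNL2 (0.863), FADS1 (0.937), SNAP25 (0.936), HAS2 (0.855) and SLC2A3 (0.833). Replicate 2 of day 1 was the highest library, by these ratios, for MYF5 (0.83) and MYBL2 (0.838). Replicate 2 of day 1 was the lowest library, by these ratios, for TERT (0.903), ACTN2 (0.844), DLL1 (0.831), MMP11 (0.839), DES (0.906) and TNNT2 (0.908). Replicate 1 of day 1 was the highest library, by these ratios, for MYH3 (0.849), ID3 (0.864) and HEY1 (0.914). Replicate 1 of day 1 was the lowest library, by these ratios, for CCND2 (0.855). Replicate 4 of day 0 was the highest library, by these ratios, for ACTN2 (1.0). Replicate 3 of day 0 was the highest library, by these ratios, for COL14A1 (0.929) and CHRNE (0.846). Replicate 3 of day 1 was the highest library, by these ratios, for MYLK2 (1.0). Replicate 4 of day 1 was the highest library, by these ratios, for SLC2A3 (0.851).

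The first-day log2 fold change differed between the lines for all 10 genes compared, by the test of the difference itself. LHCN-M2 minus C2C12 was 10.14 for MYOG as a bound, 1.21 for MYOD1, -1.51 for MYH3, -2.17 for ACTC1, 5.49 for MYMK as a bound, 0.25 for CDKN1A, -3.56 for MKI67, -7.35 for ID1, 2.60 for HMGCS1 and -2.47 for CCND1.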

How the results depend on the processing

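Across the alternatives, the number of genes higher at day 1 was 4303 with DESeq2's size factors, 4822 with upper quartile factors, 4242 with no filter, 3780 with a stricter filter, 4630 with DESeq2 and 3777 with days 0 and 1 alone, beside 4262. The number lower was 4224, 3751, 4055, 3859, 4502 and 3956 in the same order, beside 4279. Upper quartile factors moved the median of all genes by 0.07. The stricter filter (1 CPM in 8 libraries, 13282 genes tested) left 1283 genes at least 2-fold higher, beside 1961; it tests fewer low genes. Leaving out 1 library at a time gave 3886 to 4990 genes higher, 3630 to 4475 lower, 1885 to 2080 at least 2-fold higher and 1217 to 1370 at least 2-fold lower. Some single genes that did not pass changed sign. CDKN2A ranged from -0.28 to 0.05, above 0 without replicate 2 of day 0. FAT1 ranged from -0.21 to 0.19, below 0 without that library. CDK4 ranged from -0.04 to 0.12, below 0 without replicate 3 of day 0. The cause was not tested. Of all values recomputed, 5507 stayed the same. For fold changes that means the same direction and side of the threshold, and for counts of genes or list members a change of at most 1.5 times. Of the other values, 78 lost the threshold, 7 gained it and 3 changed sign, and 65 counts moved by over 1.5 times or to or from 0. Genes named in the report that lost the threshold in at least 1 alternative were LFNG, PHKA1, RPS7, RPSA, RPS23, RPS27, MYOCD, MYOT, CRYAB, ELOB, MX1 and, among the splicing regulators, MBNL3; PMVK, CHRNE, ISG15 and TAGLN gained it in at least 1. Without replicate 2 of day 0, counts moved by over 1.5 times for ribosomal proteins, oxidative phosphorylation and mitochondrially encoded genes, for the lower members of excitation-contraction coupling (2, beside 1) and of the endothelial list (2, beside 1), and for the higher neural genes (2, beside 1).

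The labels do not say if the replicate numbers pair the samples, and the main fit used no pairing. Deviations of same-numbered libraries from their day's mean correlated at -0.071, -0.0542, 0.0259 and 0.00694. No pairing was thus seen, but a weak one could be missed, since replicate 2 of day 0 weighs heavily on the day 0 deviations. With the replicate number as a block, 4069 genes were higher and 4033 lower, 1914 of the first and 1289 of the second at least 2-fold.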

Other observations

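Splicing regulators of muscle were split, with 7 of 14 higher and 7 lower. RBM20, the splicing factor of titin, had 7.22, 7.97, 8.73 and 8.20 CPM at day 1, against 1.73, 1.43, 2.50 and 2.48 CPM at day 0 (log2 fold change 1.97 ± 0.18, adjusted p = 3.7e-07), and RBM24 rose by 0.99. MBNL2 rose by 0.77, whereas its paralog MBNL3 fell by 0.77, a call lost when any of 3 of the 8 libraries was left out. Of 18 clock genes, 7 were higher (38.9%) and 2 lower (11.1%), beside 23.4% and 23.5% of all genes. DBP, an output factor of the clock, had 13.5, 10.3, 11.5 and 9.18 CPM at day 1, against 1.43, 5.65, 2.07 and 2.48 CPM at day 0 (log2 fold change 1.94 ± 0.31, adjusted p = 0.000117), and PER1, a repressor of the clock, had 9.83, 9.01, 8.91 and 7.64 CPM at day 1, against 32.1, 31.2, 29.2 and 32.6 CPM at day 0 (log2 fold change -1.82 ± 0.11, adjusted p = 2.38e-09).

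Of 17 measured genes that respond to glucocorticoids, 9 were lower (52.9%) and 5 higher (29.4%), beside 23.5% and 23.4% of all genes. ZBTB16, a zinc finger factor, had 0.0488, 0, 0.0407 and 0 CPM at day 1, against 0.703, 0.451, 1.14 and 1.61 CPM at day 0 (log2 fold change -5.26 ± 0.85, adjusted p = 0.00027). Of 23 p53 targets, 11 were higher (47.8%) and 3 lower (13.0%), beside 23.4% and 23.5% of all genes. Without replicate 2 of day 0 the counts were 15 higher and 3 lower. Among the higher ones were TP53INP1 (2.40) and BBC3, a pro-apoptotic gene (1.56). Among inflammatory genes, 9 of 23 were higher (39.1%) and 6 lower (26.1%), the lower share near the 23.5% of all genes. The complement gene C3 had 10.5, 9.50, 8.14 and 5.66 CPM at day 1, against 0.379, 0.345, 0.697 and 0.609 CPM at day 0 (log2 fold change 4.04 ± 0.30, adjusted p = 3.25e-08), and the chemokine gene CXCL12 rose by 2.23. Of 12 measured neural genes, MAP2 rose (1.23) and 5 fell, among them SNAP25 (-2.70); without replicate 2 of day 0 the counts were 2 higher and 5 lower.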
